A study of Mus musculus with 6 samples.

Results

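The laminin chain genes of mouse muscle cells are described here in 6 bulk RNA-seq libraries, 3 labelled WT and 3 labelled eIF5A-KO. The members are the 9 genes Lama1, Lama2, Lama3, Lama4, Lama5, Lamb1, Lamb2, Lamb3 and Lamc1, picked by symbol from a table of 54532 genes. The family was chosen because Lamb3 was 1 of 3 genes that passed the threshold in the same contrast of genotypes, so the difference in Lamb3 and in its relatives is given as a description and not as a test. Those 3 genes (Lamb3, Myh11 and Il18rap) had an adjusted p of 0.0486 by edgeR's quasi-likelihood test, and the next 3 (Gm9625, Rbm24 and Mab21l3) had 0.0768. Of the 9 chains, 8 had enough reads to enter the fit of 14679 genes, and Lama1 did not. Lamc3, another γ chain gene, was read beside the members.

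The libraries came from primary myoblasts, the progeny of muscle satellite cells (SCs), grown from hind-limb muscle of 3-week-old C57BL/6j mice and kept with FGF until day 2 of culture. The eIF5A-KO mice were Pax7CreERT2/+;eIF5Af/f and had received tamoxifen (TMX), which switches on a Cre recombinase made only in cells that express Pax7. Any other cell type in the culture therefore keeps its eIF5A gene. WT mice were littermates, whose genotype the study gives in different places as Pax7CreERT2/+ or as Pax7+/+;eIF5Af/f. The comparison asks which transcripts change when SC-derived cells lose eIF5A, a translation factor that carries the modified amino acid hypusine. The labels do not say whether the 3 libraries of a genotype came from separate animals, so p-values measure the spread between these libraries, which may be partly technical.

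Laminins are secreted trimers of one α, one β and one γ chain, joined through a long coiled coil, and they form the sheet-like network at the base of the basement membrane. In skeletal muscle the basement membrane encloses each fibre together with its SCs, and cells hold on to it through integrins and dystroglycan. The main muscle laminin is built from the α2, β1 and γ1 chains, blood vessels are rich in the α4 and α5 chains, and the β2 chain is concentrated at the neuromuscular synapse. The β3 chain, encoded by Lamb3, is known from the skin, where it joins the α3 chain in the laminin that anchors keratinocytes.

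Total counts were close, at 16281216 to 17734551 per library. The library labelled WT replicate 1 stood apart, with 5.75% of its counts on mitochondrial genes against 2.11% to 3.5% in the other 5. The targeted gene, Eif5a, had 24797, 18598 and 20965 counts in WT replicates 1, 2 and 3, and 22300, 24646 and 18687 counts in eIF5A-KO replicates 1, 2 and 3. Its log2 fold change (eIF5A-KO minus WT) was 0.02 with a 95% confidence interval of −0.51 to 0.55, and edgeR gave an adjusted p of 0.993. The transcript level of the targeted gene thus did not separate the groups, and the groups are called libraries labelled eIF5A-KO and WT. The study measured the knockout by RT-qPCR and immunostaining in SCs of adult mice, and judged it successful there. Counts here cover the whole gene and do not single out a deleted part.

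Lamb3 was low in all libraries and lower still in those labelled eIF5A-KO. The gene (ENSMUSG00000026639, mm10 chr1:193207699-193343878, plus strand) had 66, 123 and 99 counts in WT replicates 1, 2 and 3, against 11, 4 and 7 counts in eIF5A-KO replicates 1, 2 and 3. In FPKM, fragments per kilobase of gene scaled to library depth, the same libraries held 0.635, 0.976 and 0.877 against 0.101, 0.0356 and 0.0598. Every library labelled eIF5A-KO lay below every WT library, and the lowest WT level was 6.3 times the highest eIF5A-KO level. Mean FPKM was 0.829 ± 0.176 in WT and 0.0654 ± 0.033 in eIF5A-KO (SD, n = 3 each), a ratio of 12.7. The log2 fold change was −3.66 (SE 0.41, 95% confidence interval −4.58 to −2.73), and it was −3.81 without WT replicate 1. Both groups are thinly counted, with 288 reads in the WT libraries together and 22 in the eIF5A-KO libraries. In bulk RNA, fewer cells that transcribe a gene and less RNA per cell cannot be told apart.

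Lamb3 was the single chain of the 8 tested that was called, and it was lower. Of all 14679 genes tested, 0.0136% were called lower and 0.00681% higher, and nothing is read from this count because the family was chosen on it. Leaving out any 1 library other than WT replicate 1 ended the call of Lamb3, as did scaling by DESeq2 size factors, while its direction held. It was also the single tested chain whose WT and eIF5A-KO libraries did not overlap. Among all tested genes, 6.83% had every eIF5A-KO library below every WT library and 5.68% had every one above.

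**Figure D1:**
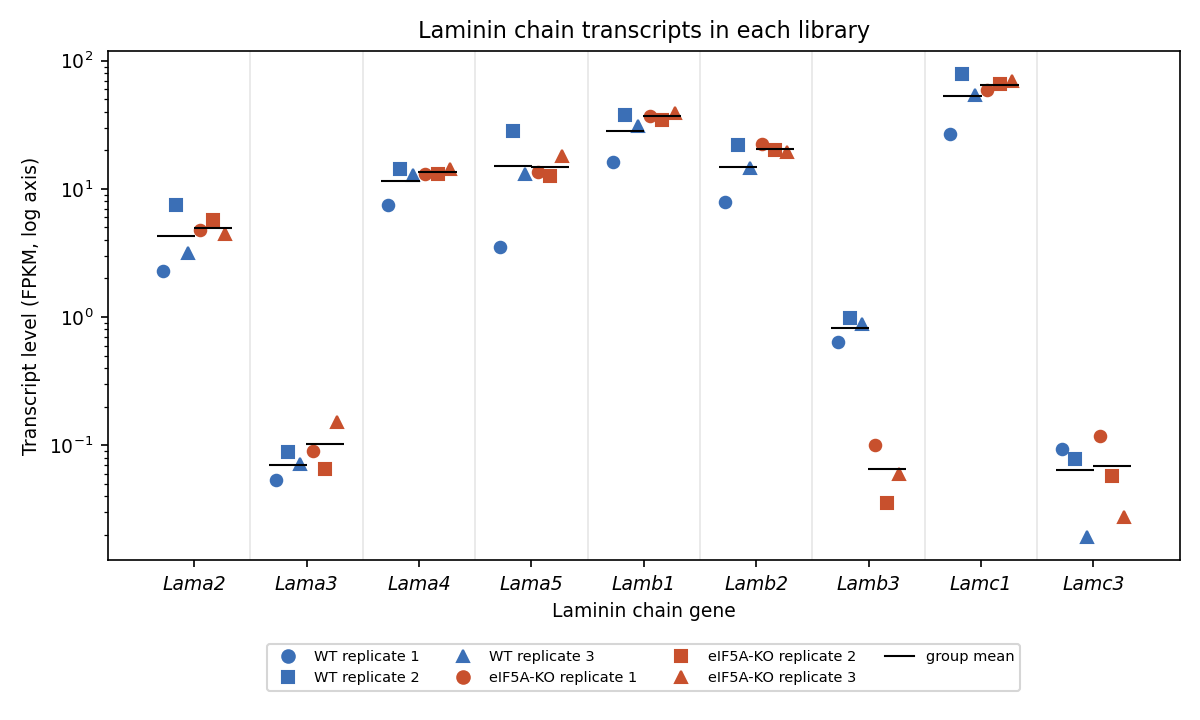
FPKM (log axis) of 9 laminin chain genes in each library, with WT in blue, eIF5A-KO in red, 1 marker per library and the group mean as a black line; Lama1 is not drawn because it was listed at 0 in 4 libraries. The 3 eIF5A-KO libraries of Lamb3 sit at 0.0356 to 0.101, all below the WT libraries at 0.635 to 0.976, while the groups of every other chain overlap.

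The other β chains were abundant. Lamb1 (ENSMUSG00000002900, chr12:31265234-31329644, plus strand) is the widely used β chain and the β partner in the main muscle laminin. It stood at 16.2, 37.4 and 31.1 FPKM in WT replicates 1, 2 and 3 and at 37.0, 34.7 and 38.9 FPKM in eIF5A-KO replicates 1, 2 and 3. WT replicate 1 was low, and the other 5 libraries lay close together. The means were 28.3 ± 10.9 and 36.9 ± 2.07 FPKM (SD, n = 3 each), with a log2 fold change of 0.38 (SE 0.28, 95% confidence interval −0.25 to 1.00). Lamb2 (ENSMUSG00000052911, chr9:108479736-108490530, plus strand), the synaptic β chain, had 7.87, 21.8 and 14.6 FPKM in WT and 22.5, 20 and 19.3 FPKM in eIF5A-KO. Again WT replicate 1 was lowest, and the groups overlapped because WT replicate 2 reached the eIF5A-KO levels. The log2 fold change was 0.47 (SE 0.31, 95% confidence interval −0.23 to 1.17), 0.18 without WT replicate 1 and 0.87 without WT replicate 2. Lamb1 exceeded Lamb2 in every library, by 1.71 to 2.13 times in WT and 1.64 to 2.02 times in eIF5A-KO. Lamb3 made up 2.57%, 1.62% and 1.88% of the summed β chain FPKM in WT replicates 1, 2 and 3, and 0.169%, 0.065% and 0.103% in eIF5A-KO replicates 1, 2 and 3. The low WT replicate 1 therefore held the highest Lamb3 share, since its Lamb3 was reduced less than its Lamb1 and Lamb2.

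The promoters of the 3 β chain genes are shown because Lamb3 stood apart from Lamb1 and Lamb2 between genotypes. Each run spans 250 bases before to 50 bases after a transcription start in RefSeq on GRCm38.p6, read 5′ to 3′ on the plus strand, at chr12:31265043-31265342, chr9:108479612-108479911 and chr1:193301744-193302043. Capitals mark matches to CANNTG, the E-box core that MyoD and other basic helix-loop-helix factors recognise, which reads the same on both strands.
Lamb1: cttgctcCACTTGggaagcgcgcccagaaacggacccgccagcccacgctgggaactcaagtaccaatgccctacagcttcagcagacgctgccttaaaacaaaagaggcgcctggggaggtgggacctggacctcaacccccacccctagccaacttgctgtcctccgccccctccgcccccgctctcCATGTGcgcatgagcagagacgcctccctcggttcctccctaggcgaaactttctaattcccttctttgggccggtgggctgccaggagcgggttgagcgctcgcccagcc
Lamb2: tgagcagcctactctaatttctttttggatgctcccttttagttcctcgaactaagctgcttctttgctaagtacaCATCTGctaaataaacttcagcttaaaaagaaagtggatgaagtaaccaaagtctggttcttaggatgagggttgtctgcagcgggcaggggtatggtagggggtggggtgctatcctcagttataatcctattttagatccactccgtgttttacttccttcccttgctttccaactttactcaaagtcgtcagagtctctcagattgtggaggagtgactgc
Lamb3: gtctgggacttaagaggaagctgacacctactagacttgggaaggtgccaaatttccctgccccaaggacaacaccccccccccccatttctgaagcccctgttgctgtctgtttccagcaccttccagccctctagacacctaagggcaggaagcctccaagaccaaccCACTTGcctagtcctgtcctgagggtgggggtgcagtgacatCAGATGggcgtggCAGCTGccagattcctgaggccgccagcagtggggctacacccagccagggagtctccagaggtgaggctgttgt
The window of Lamb3 held 3 E-box cores, the last of which read CAGCTG, while that of Lamb1 held 2 and that of Lamb2 held 1. Of 32851 mouse promoter windows of this length, 72.3% held at least 1 CANNTG and 17.6% held 3 or more. CAGCTG is a special case of CANNTG. It was in 16.3% of all windows and, of the 6 windows that the RefSeq table gave for 5 members (Lama2, Lama5, Lamb1, Lamb2 and, with 2 starts, Lamb3), only in the first window of Lamb3. TGANTCA, the AP-1 site, was in 7.81% of all windows and in 0 of the 6, which says only that these letters are missing from these stretches. Among the other forms of CANNTG, the Lama5 window held CACCTG and CAGGTG, and the second Lamb3 window held 2 matches to CACCTG. A match of letters is a description and not a bound site.

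These Lamb3 windows lie at inner transcription starts. The annotation (GENCODE M21, whose gene ends match the table for 9 of 9 members) gives Lamb3 9 transcripts, 4 of them protein-coding. The outermost coding start lies 94.3 kb upstream of the inner one, and 34.3% of the 6612 exonic bases behind its FPKM come before the inner start. Counts per gene do not show which start was used. Of 6 annotated genes that overlap Lamb3, none shares an exonic base with it, and those with at least 10 counts in any library were Hsd11b1, an enzyme that regenerates active glucocorticoid, and G0s2, a lipase inhibitor, both on the other strand. Hsd11b1 had 1711, 1028 and 1140 counts in WT and 1900, 1781 and 1072 in eIF5A-KO, and its log2 fold change was 0.28 (SE 0.31, edgeR adjusted p = 0.936). G0s2 had 750, 467 and 691 against 735, 635 and 441 counts, with a log2 fold change of −0.08 (SE 0.29, edgeR adjusted p = 0.98). These 2 genes thus carried many more reads than Lamb3 and did not pass the test, while the other 4 had 0 to 7 counts in a library and were not tested. Whether counting used strand was not given in the sources used here.

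Lama3, the α partner of the β3 chain in the skin laminin, had 9, 18 and 13 counts in WT and 16, 12 and 29 counts in eIF5A-KO, that is 0.0533 to 0.0879 FPKM and 0.0657 to 0.152 FPKM. Its groups overlapped, and the log2 fold change was 0.52 (SE 0.44, 95% confidence interval −0.47 to 1.52). The few Lama3 reads leave room for a change in either direction.

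Markers of keratinocytes and other epithelial cells were read because the β3 chain is typical of such cells. Of 8 genes, Krt14, Krt15 and Dsg3 were at 0 in every library, and the summed FPKM of the list ran from 4.47 to 9.24 in WT and from 6.39 to 10.7 in eIF5A-KO. Nearly all of that sum was Sfn, which was present in every library, at 4.3, 7.51 and 9.04 FPKM in WT and 10.5, 6.28 and 8.5 FPKM in eIF5A-KO. The defining basal keratins were thus at or near 0 in both groups. Of the anchoring genes that work with the skin laminin, Col17a1 was at 0.408 to 0.992 FPKM in WT and 0.663 to 0.858 FPKM in eIF5A-KO, and Col7a1 at 0.26 to 0.473 and 0.326 to 0.477 FPKM.

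Among the α chains, Lama5 and Lama4 were the main ones. Lama5 (ENSMUSG00000015647, chr2:180176373-180225859, minus strand), the most widespread α chain of adult basement membranes, had 3.49, 28.5 and 13.0 FPKM in WT replicates 1, 2 and 3 and 13.5, 12.7 and 18.1 FPKM in eIF5A-KO replicates 1, 2 and 3. The WT libraries spread 8.19 times from lowest to highest and enclosed all 3 eIF5A-KO libraries. The means, 15 ± 12.6 and 14.8 ± 2.93 FPKM (SD, n = 3 each), gave a log2 fold change of −0.03 with a wide 95% confidence interval of −1.29 to 1.24. The estimate moved from −0.49 without WT replicate 1 to 0.84 without WT replicate 2, so these libraries do not fix its direction.

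Lama4 (ENSMUSG00000019846, chr10:38965515-39110188, plus strand), an α chain of vessels and of developing muscle, was steadier. It had 7.55, 14.3 and 12.9 FPKM in WT and 13.1, 13.1 and 14.3 FPKM in eIF5A-KO. Apart from WT replicate 1, all libraries lay between 12.9 and 14.3 FPKM, and the log2 fold change was 0.22 (SE 0.23, 95% confidence interval −0.31 to 0.74). Lama2 (ENSMUSG00000019899, chr10:26980036-27619758, minus strand), the α chain of the main muscle laminin, whose loss causes a congenital muscular dystrophy, had 2.27, 7.5 and 3.17 FPKM in WT and 4.8, 5.72 and 4.42 FPKM in eIF5A-KO. WT replicate 2 was the highest library and the other WT libraries were the lowest, so the eIF5A-KO libraries fell inside the WT range. The log2 fold change of Lama2 was 0.20 (SE 0.38, 95% confidence interval −0.65 to 1.05), and it went from −0.09 without WT replicate 1 to 0.87 without WT replicate 2, so its direction depended on the library left out.

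Lama1 (ENSMUSG00000032796, chr17:67697259-67822647, plus strand), the α chain of early embryonic basement membranes, was barely detected. It had 0 counts in the WT libraries and 3, 0 and 1 counts in eIF5A-KO replicates 1, 2 and 3. A count of 0 allows up to 3 counts per library, which is 0.0163 to 0.0197 FPKM for Lama1 in the WT libraries, so both groups were at or under the limit of detection and no fold is given. That limit covers counting error alone.

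The makeup of the α chains differed most between the WT libraries. Lama4 made up 56.5%, 28.4% and 44.2% of the summed α chain FPKM in WT replicates 1, 2 and 3 and 41.6%, 41.5% and 38.7% in eIF5A-KO replicates 1, 2 and 3. Lama5 made up 26.1%, 56.6% and 44.6% in WT and 42.9%, 40.2% and 49% in eIF5A-KO. The 2 chains thus exchanged the lead between WT replicates 1 and 2, and both eIF5A-KO ranges lay inside the WT ranges. Lama2 held 10.9% to 18.1% of the α chain sum in the 6 libraries.

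**Figure D2:**
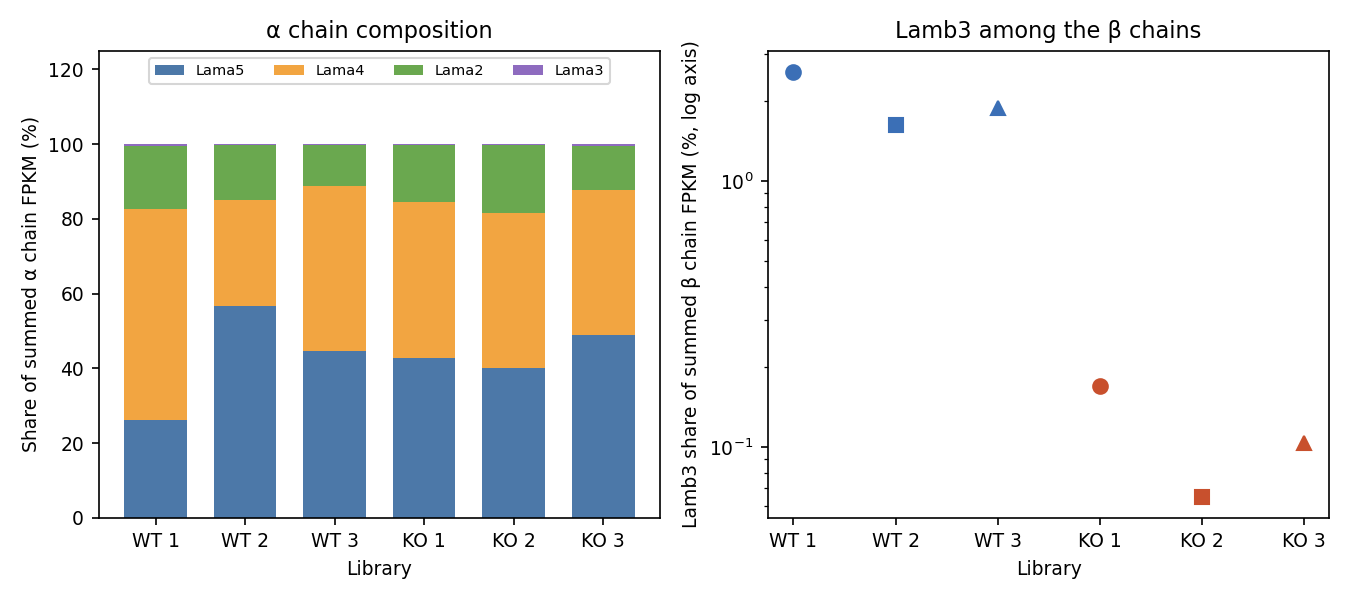
Left, share (%) of each α chain in the summed α chain FPKM of each library; right, share (%, log axis) of Lamb3 in the summed β chain FPKM of each library, 1 point per library. Lama5 ranges from 26.1% in WT replicate 1 to 56.6% in WT replicate 2, and Lamb3 lies at 1.62% or more in WT and at 0.169% or less in eIF5A-KO.

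Lamc1 (ENSMUSG00000026478, chr1:153218922-153332786, minus strand), the γ chain shared by nearly all laminins outside the skin type, was the most abundant member. It had 26.7, 78.8 and 54.1 FPKM in WT replicates 1, 2 and 3 and 59.5, 65.2 and 69.4 FPKM in eIF5A-KO replicates 1, 2 and 3. The eIF5A-KO libraries lay inside the WT range, and the log2 fold change was 0.28 (SE 0.33, 95% confidence interval −0.47 to 1.02). Lamc3 had 2 to 12 counts in a library and was not tested. Summed β chain FPKM was 0.928, 0.765 and 0.861 times that of Lamc1 in WT and 1, 0.84 and 0.839 times in eIF5A-KO. The α sum was 0.484 to 0.64 times Lamc1 over the 6 libraries. These ratios varied far less than the sums themselves, which ran from 64.8 FPKM in WT replicate 1 to 190 FPKM in WT replicate 2 for the 9 members together.

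By median FPKM over the 6 libraries the chains followed the order Lamc1 (62.4), Lamb1 (35.9), Lamb2 (19.6), Lama5 (13.3), Lama4 (13.1), Lama2 (4.61), Lamb3 (0.368), Lama3 (0.0794) and Lama1 (0). Neighbours in this order were set side by side within each library, as a description with no test, since the order comes from the same libraries. Of the 8 neighbour pairs, 5 kept the same order in 6 of 6 libraries. These were Lamc1 over Lamb1 (mean log2 ratio 0.83, SD 0.14), Lamb1 over Lamb2 (0.90, SD 0.16), Lama4 over Lama2 (1.48, SD 0.38), Lama2 over Lamb3 (3.52, SD 1.64) and Lama3 over Lama1 (0.83, SD 0.23), on the log2(FPKM + 0.1) scale. The last pair sets 9 to 29 counts against a gene at 0 in 4 libraries, and the SD of the pair with Lamb3 takes in its difference between genotypes. Lamb2 exceeded Lama5 in 5 of 6 libraries (mean log2 ratio 0.40, SD 0.55), which is within their spread. Lama5 and Lama4 were in either order (0.04, SD 0.68). Lamb3 exceeded Lama3 in 4 of 6 libraries, the 3 WT libraries and eIF5A-KO replicate 1.

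The spread between libraries was larger in WT than in eIF5A-KO for the main chains. The SD of log2 CPM (counts scaled to library size) was 1.53 in WT and 0.27 in eIF5A-KO for Lama5, and 0.79 and 0.11 for Lamc1. For Lamb1 it was 0.63 and 0.08. The medians over all tested genes were 0.31 and 0.22. Lamb3 (0.31 and 0.58) and Lama3 (0.31 and 0.55), both with few reads, went the other way.

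In WT the libraries kept 1 order for every tested chain. WT replicate 1 was below WT replicate 3, and that was below WT replicate 2, in 8 of 8 chains, an order seen in 28.3% of all tested genes. WT replicate 1 was the lowest of all 6 libraries in 7 of 8 chains, Lamb3 being the exception, against 27.9% of tested genes. WT replicate 2 was the highest of the 6 in 5 chains (Lama2, Lama4, Lama5, Lamb3 and Lamc1), against 24.6% of tested genes. The chains share these libraries, so they are not 8 separate observations.

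Gene length moved with the level in WT replicates 1 and 2, in opposite directions. Against the mean of the other 5 libraries, the median log2 CPM difference of genes of at least 8000 bases was −0.23 in WT replicate 1 and 0.34 in WT replicate 2, and that of genes shorter than 2000 bases was 0.33 and −0.32. In the remaining libraries the long genes lay between −0.15 and 0.15. For WT replicate 1, log2 CPM less the mean of the other WT libraries had a median of 0.43 over 2720 genes shorter than 2000 bases and −0.34 over 2353 genes of at least 8000 bases. The median was −0.10 between 4000 and 8000 bases, the class of Lamb2 and Lamb3, and the other tested chains are longer. The same difference was −2.45 for Lama5, −1.28 for Lamc1, −1.17 for Lamb2, −1.09 for Lama2 and −1.06 for Lamb1. It was −0.83 for Lama4, −0.52 for Lamb3 and −0.48 for Lama3. Each chain thus lay further down than the median of its length class. The part of length in these values was not tested.

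Without WT replicate 1 the differences between genotypes shrank for most chains. The median log2 fold change of the 8 tested members was 0.25 (6 above 0 and 2 below), −0.02 without WT replicate 1 and 0.69 without WT replicate 2. Without WT replicate 2 the estimates of the 7 members other than Lamb3 were all above 0, from 0.40 for Lama4 to 0.87 for Lama2 and Lamb2. The 95% confidence intervals of Lama2 (0.38 to 1.35), Lamb2 (0.29 to 1.44), Lamb1 (0.05 to 1.22) and Lamc1 (0.05 to 1.3) then excluded 0, and those of Lama3, Lama4 and Lama5 did not. Without WT replicate 1, Lama2, Lama4, Lama5 and Lamc1 were below 0, from −0.49 to −0.0043. The median of all tested genes was −0.01 (7097 above 0 and 7582 below), and 0.01 when either library was left out. Lamb3 kept its direction in each of these fits, at −3.81 without WT replicate 1 and −3.52 without WT replicate 2. The level of the other chains in eIF5A-KO relative to WT thus depended on which WT library was counted.

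**Figure D3:**
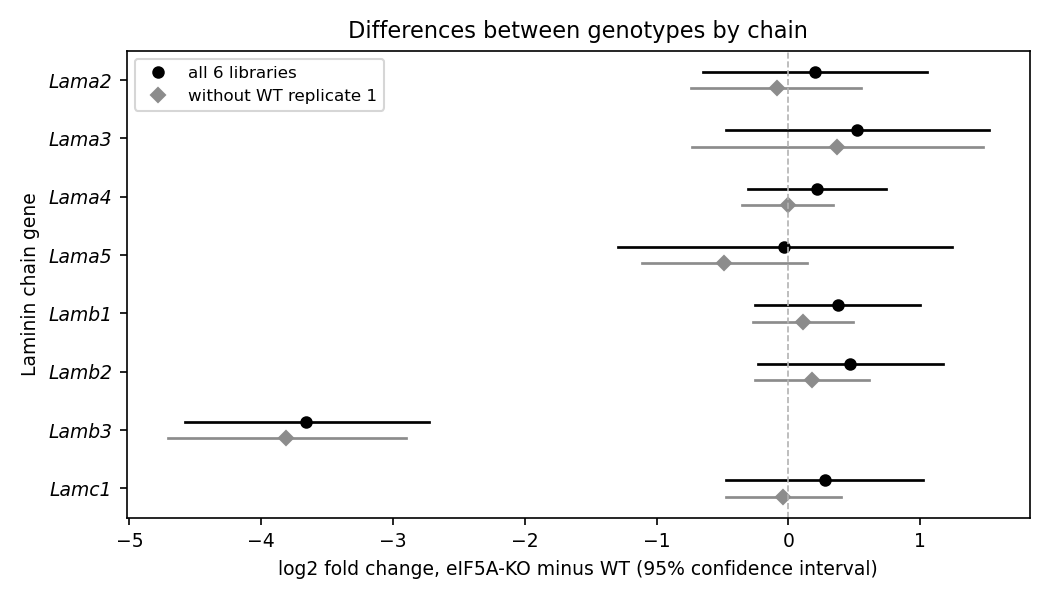
log2 fold change (eIF5A-KO minus WT, edgeR) with its 95% confidence interval for the 8 tested members, from all 6 libraries (black circles) and without WT replicate 1 (grey diamonds). Lamb3 lies at −3.66 and −3.81, and the intervals of the other 7 members include 0 in both fits. The fit without WT replicate 2, which moved these 7 upward to between 0.40 and 0.87, is not drawn, and there the intervals of Lama2, Lamb1, Lamb2 and Lamc1 lie above 0.

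Cell type markers were read in the same way, because fibroblasts, vessel cells and Schwann cells also make laminin and keep their eIF5A gene. The myogenic list (Pax7, Myf5, Myod1, Myog, Cdh15 and Des) had a count in every library for 6 of 6 genes. Its summed FPKM, most of it from Myod1, ran from 214 to 490 in WT and from 169 to 333 in eIF5A-KO. Of the 6 genes 5 had estimates below 0, with a median log2 fold change of −0.49. The median was −0.78 without WT replicate 1 (5 of 6 below 0) and −0.12 without WT replicate 2 (3 of 6 below 0).

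Myog, a factor of differentiating myoblasts, had 9.49, 50.5 and 21.4 FPKM in WT and 5.92, 3.39 and 1.4 FPKM in eIF5A-KO, with a log2 fold change of −2.94 (edgeR adjusted p = 0.362). Like Lamb3, it had every eIF5A-KO library below every WT library, and WT replicate 2 highest. Pax7, the SC marker, had 2.17, 8.73 and 4.26 FPKM against 2.19, 1.41 and 1.8 FPKM, with a log2 fold change of −1.50 (edgeR adjusted p = 0.484). Neither passed adjustment with all 6 libraries, but both passed without WT replicate 1, Myog at −3.33 (edgeR adjusted p = 0.0182) and Pax7 at −1.85 (edgeR adjusted p = 0.0278). Without WT replicate 2 the estimates were −2.12 for Myog and −0.84 for Pax7. Neither passed when any library other than WT replicate 1 was left out. The part of these genes in the level of Lamb3 was not tested.

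The endothelial list was detected for 8 of 8 genes, at 296, 652 and 610 FPKM in WT replicates 1, 2 and 3 and 741, 556 and 768 FPKM in eIF5A-KO replicates 1, 2 and 3. Cdh5, the endothelial cadherin, had 57.1, 172 and 141 FPKM in WT and 132, 124 and 194 FPKM in eIF5A-KO. The endothelial sum was thus low in WT replicate 1, the library in which the laminin chains were low. Emcn was lowest in WT replicate 2, at 26.3, 23.9 and 31.6 FPKM in WT and 43.4, 32.8 and 40.7 FPKM in eIF5A-KO. Its groups did not overlap, as for 5.68% of all tested genes in that direction, while those of the other endothelial genes did. The median log2 fold change of the list was 0.45, with 0.18 without WT replicate 1 and 0.60 without WT replicate 2.

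Mural cell markers summed to 77.6 to 130 FPKM in WT and 138 to 167 FPKM in eIF5A-KO, and Schwann cell markers to 35.7 to 57.2 and 58.2 to 72.9 FPKM. In both lists every eIF5A-KO library lay above every WT library. The mural list holds Myh11, smooth muscle myosin, the single gene called higher over all genes (log2 fold change 1.52, edgeR adjusted p = 0.0486). As for Lamb3, that call ended when any 1 library other than WT replicate 1 was left out, and with DESeq2 size factors. Estimates were above 0 for 7 of 7 tested mural genes, 8 of 8 endothelial genes and 8 of 8 Schwann cell genes. Without WT replicate 1 these counts were 6, 7 and 5, with Notch3, Cdh5, Mbp, Cdh19 and Erbb3 below 0, and without WT replicate 2 they were again 7, 8 and 8. Fibroblast markers summed to 769 to 1107 and 841 to 991 FPKM, and leukocyte markers to 44.8 to 98.3 and 48.3 to 123 FPKM, and both overlapped. The fibroblast sum came mostly from Ly6a and Dcn. The collagen genes of that list went another way, with Col1a1 at 16.5, 28.7 and 19.7 FPKM in WT and 30.9, 37.7 and 38.8 FPKM in eIF5A-KO (log2 fold change 0.72, edgeR adjusted p = 0.504). Col1a2 had 27.3, 38.7 and 32.3 against 59.3, 59.9 and 42.2 FPKM (0.71, edgeR adjusted p = 0.495). Both collagens were lowest in WT replicate 1 and did not overlap between groups, as for 5.68% of all tested genes in that direction. Of the 8 fibroblast genes, 3 had estimates above 0 and 5 below, with a median log2 fold change of −0.12. That median was 0.23 without WT replicate 1 and −0.16 without WT replicate 2. Transcripts that mark several laminin-producing cell types were thus present in both groups. Their part in the laminin levels was not tested.

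**Figure D4:**
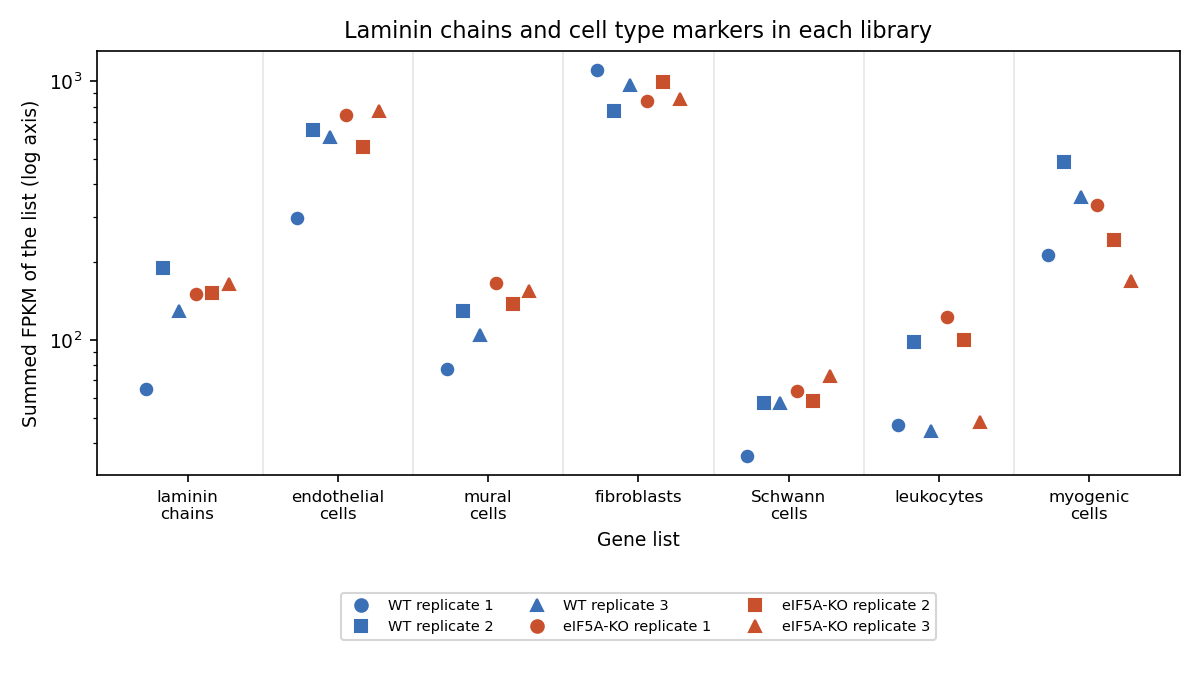
Summed FPKM (log axis) of the 9 members and of 6 lists of cell type markers in each library, WT in blue and eIF5A-KO in red, 1 marker per library. WT replicate 1 is lowest for the laminin chains (64.8 FPKM) and for the endothelial (296 FPKM), mural (77.6 FPKM) and Schwann cell (35.7 FPKM) lists, while its fibroblast sum is the highest at 1107 FPKM.

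Laminin receptors showed no called change. Itga7, the muscle integrin that binds laminin, had 11.8, 48.3 and 30.6 FPKM in WT replicates 1, 2 and 3 and 30.1, 22.5 and 20.9 FPKM in eIF5A-KO replicates 1, 2 and 3, with a log2 fold change of −0.31 (SE 0.41, edgeR adjusted p = 0.948). The WT libraries enclosed the eIF5A-KO libraries, and the order of the WT libraries was that of the laminin chains. Its β subunit Itgb1 was the most abundant integrin of those named, at 197 to 241 FPKM in WT and 188 to 261 FPKM in eIF5A-KO (0.03, SE 0.20, edgeR adjusted p = 0.988). Dag1, which encodes dystroglycan, had 28.3, 69.5 and 38 FPKM in WT and 44.5, 45.9 and 38.8 FPKM in eIF5A-KO (−0.08, SE 0.30, edgeR adjusted p = 0.983). Itga6 and Itgb4 together form the receptor of hemidesmosomes, which binds the skin laminin. Itga6 had 14.4 to 30.3 FPKM in WT and 18.1 to 32.6 FPKM in eIF5A-KO (0.04, SE 0.31, edgeR adjusted p = 0.991). Itgb4 had 1.05 to 3.21 and 2.59 to 3.5 FPKM (0.35, SE 0.35, edgeR adjusted p = 0.924). None of these receptors had groups that stood apart.

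Of 43 partner genes listed (receptors, other basement membrane proteins, dystroglycan glycosylation, hemidesmosome and anchoring genes, and proteases that process laminins), 41 were found in the table and 38 tested. By edgeR 0 of the 38 were called, against 0.0204% of all tested genes in either direction, and DESeq2 also called 0. At an unadjusted p under 0.05 edgeR gave 4 of the 38, against 6.76% of all tested genes, and DESeq2 gave 4. The estimates were above 0 for 24 genes and below 0 for 14, with a median of 0.12. Without WT replicate 1 the median was −0.01, with 19 above 0 and 6 at an unadjusted p under 0.05, and without WT replicate 2 it was 0.37, with 31 above 0 and 8 at an unadjusted p under 0.05, and 0 were called in either fit. By list, with all libraries, the tested genes with estimates above 0 were 7 of 9 receptors, 8 of 11 basement membrane partners, 3 of 10 dystroglycan glycosylation genes, 2 of 4 hemidesmosome and anchoring genes and 4 of 4 proteases. In the same order of lists, these counts were 5, 7, 3, 0 and 4 without WT replicate 1. Without WT replicate 2 they were 8, 10, 5, 4 and 4.

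Of the 38 tested partner genes, 5 had groups that did not overlap, against 12.5% of all tested genes in either direction. They were Bmp1, a protease that processes laminin chains (log2 fold change 0.25), and the 4 genes with an unadjusted p under 0.05. Mmp2, a matrix metalloproteinase that cuts laminin and collagen IV, had 46.4, 58.7 and 54.5 FPKM in WT and 108, 84.1 and 61 FPKM in eIF5A-KO, a log2 difference of 0.66 (SE 0.23, edgeR adjusted p = 0.56). Mmp14, the membrane protease that activates Mmp2, had 44.6, 63.7 and 55.1 FPKM in WT and 76.6, 75.7 and 75.6 FPKM in eIF5A-KO (0.47, SE 0.18, edgeR adjusted p = 0.644). Its eIF5A-KO libraries were nearly level. Sparc, a collagen-binding matrix protein, had 530, 447 and 497 FPKM in WT and 722, 654 and 632 FPKM in eIF5A-KO (0.44, SE 0.19, edgeR adjusted p = 0.715). B3galnt2, an enzyme that builds the laminin-binding glycan of dystroglycan, had 5.26, 6.05 and 5.38 FPKM in WT and 4.09, 4.37 and 4.48 FPKM in eIF5A-KO (−0.38, SE 0.16, edgeR adjusted p = 0.715). None of these passed adjustment over all tested genes.

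**Figure D5:**
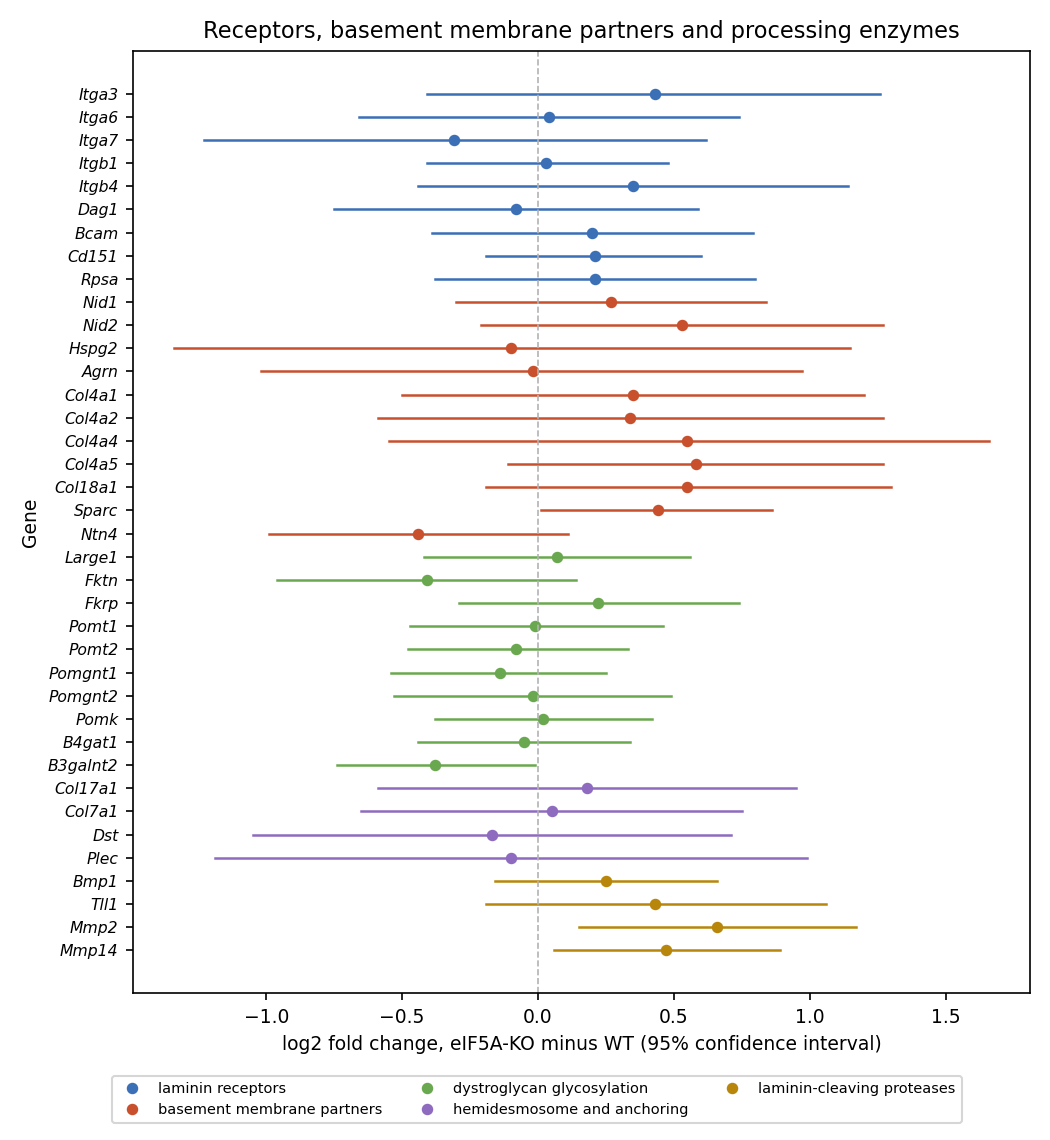
log2 fold change (eIF5A-KO minus WT, edgeR) with its 95% confidence interval for the 38 tested partner genes, 1 line per gene and 1 colour per list. The 4 intervals that exclude 0 belong to Mmp2, Mmp14, Sparc and B3galnt2, and 0 genes passed adjustment over all 14679 tested genes.

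The genes whose log2 CPM followed that of Lamb3 most closely over the 6 libraries were Gjc1 (Pearson r = 0.995), Bag4 (0.993), Id2 (0.991), Cdkn2c (0.990) and Kcnf1 (0.989). Gjc1 encodes a gap junction connexin, Id2 an inhibitor of basic helix-loop-helix factors and Cdkn2c a cyclin-dependent kinase inhibitor. Kcnf1, a potassium channel subunit, was the one of the 5 with a difference near that of Lamb3, with 133, 294 and 197 counts in WT, 45, 15 and 19 counts in eIF5A-KO, and a log2 fold change of −2.93. The log2 fold changes of the other 4 ran from −0.76 for Id2 to −0.31 for Bag4. These are the highest values among all tested genes over 6 libraries that share their genotype labels, and they are given as a description. The correlations of the other 7 tested chains with Lamb3 were all below 0, from −0.45 to −0.12. They take in the difference of Lamb3 between genotypes, so they do not show how the chains vary within a genotype. Within WT, 8 of 8 tested chains, Lamb3 included, kept the same order of libraries.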

How the data were processed

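RNA of 6 samples was sequenced as 6 libraries after NEBNext Ultra preparation. Per the labels and methods, reads were aligned with HISAT to mm10, and the version, annotation and strand setting were not given in the sources used here. The authors deposited whole-number counts per gene and FPKM values. The deposited FPKM equal counts per kilobase divided by the total count after a size factor. Gene coordinates and lengths are those of the table.

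Counts were tested with edgeR 4.0.16 in R 4.3.3 (filterByExpr, TMM scaling, quasi-likelihood F test of 3 eIF5A-KO against 3 WT libraries, Benjamini-Hochberg adjustment over 14679 genes, threshold 0.05). A fold change is the log2 estimate of the fit, and the prior count of 2 entered only the log2 CPM values. DESeq2 1.42.0 and limma 3.58.1 served as alternatives, with other scalings and filters, 2 FPKM pseudocounts, a replicate block and leaving out each library. The scripts were tested on simulated data. There edgeR called 92 of 98 genes changed by 2 log2 units and 26 of 97 changed by 1 log2 unit. DESeq2 called 93 and 45 of the same genes. Unchanged genes that were called numbered 11 with edgeR and 30 with DESeq2. No pair of libraries in a group agreed within counting noise (chi-square per gene 20.1 or more).

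The members and all gene lists were chosen with earlier results of these data known. Named genes were all members, Lamc3, Eif5a, genes overlapping Lamb3 with at least 10 counts in any library, 5 receptors (Itga6, Itga7, Itgb1, Itgb4 and Dag1), partner genes with an unadjusted p under 0.05, and the 5 genes most correlated with Lamb3. Other genes given with values (cell type markers, Bmp1, Col17a1 and Col7a1) were picked after their values were seen. The planned sign-flip test of neighbouring chain levels was dropped, since the same libraries set the order. Promoter sequences came from RefSeq. An item withheld for evaluation is not reported here.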

Additional observations from a re-analysis of the deposited data

How the results depend on the processing

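The log2 fold change of Lamb3 stayed between −4.09 and −3.36 in the count-based fits, limma-voom and the fits without 1 library in which it was tested. It was −0.78 on log2(FPKM + 1) and −2.49 on log2(FPKM + 0.1), where a pseudocount near or above its level shrinks the difference. Against 3 genes called over all genes in the design used, 0 were called with DESeq2 size factors in edgeR, with library size alone, with at least 10 counts required in every library (Lamb3 was then not tested), with limma-voom and on either FPKM scale. There were 249 calls without a filter, 88 with DESeq2 and 24 with a replicate block. Leaving out 1 library gave 0 to 56 calls, 56 without WT replicate 1 and 0 in each of the other 5 fits. Of the laminin chains, 1 (Lamb3) was called without a filter, with DESeq2, with the replicate block and without WT replicate 1, and 0 under the others named, so the range without 1 library was 0 to 1. The same-numbered libraries correlated at 0.084, −0.16 and 0.105, so the numbers were not taken to pair them. Partner genes called stayed at 0 in all 15 alternatives. Eif5a changed sign at −0.13, −0.01 and −0.06 without WT replicate 2, eIF5A-KO replicate 1 and eIF5A-KO replicate 2, within −0.13 to 0.23 over the 6 such fits. Of the members, Lama5 went from −0.03 to 0.41 with limma-voom, on log2(FPKM + 0.1) and with the replicate block, to 0.35 on log2(FPKM + 1), and to 0.84, 0.04 and 0.08 without WT replicate 2, eIF5A-KO replicate 1 and eIF5A-KO replicate 2. Lama2, Lama4 and Lamc1 turned to −0.09, −0.0043 and −0.04 without WT replicate 1. Itga6 reversed to −0.0037 with library size alone, −0.19 without WT replicate 1 and −0.29 without eIF5A-KO replicate 3 (range without 1 library −0.29 to 0.32). Itga7 reversed to 0.20 without WT replicate 2 (range −0.68 to 0.20). Itgb1 reversed to −0.02, −0.00052 and −0.10 without WT replicate 2, WT replicate 3 and eIF5A-KO replicate 3 (range −0.10 to 0.14). Dag1 reversed to 0.02 with limma-voom, on log2(FPKM + 1) and with the replicate block, 0.03 on log2(FPKM + 0.1), and 0.37 without WT replicate 2 (range −0.32 to 0.37). The cause of these changes was not tested. With 4 to 11 counts of Lamb3 per eIF5A-KO library, the depth limits how precisely its level there is known.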
